A study of Mus musculus with 6 samples.

Results

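The transcription factors that make and pattern the gonad were followed across 6 arrays, each hybridised with the Cy5-labelled RNA of 1 sample of gonadal cells from ICR mice. The set was the 9 genes Nr5a1, Wt1, Gata4, Gata6, Lhx9, Emx2, Cbx2, Sox9 and Dmrt1, taken by gene symbol. They had 10 of the 26423 probes on the array, 1 each for 8 genes and a pair for Lhx9. All 9 were among the 15459 genes tested. PGC colony arrays held RNA of cells from the gonads of 67 embryos at E11.5 that had grown into colonies over 7 days in 5% O2. GSC colony arrays held RNA of colonies grown in the same way, for 7 days in 5% O2, out of the testes of 80 mice aged newborn to P2. For the CD49f+ sorted arrays, cells had been purified from the testes of 100 newborn to P2 mice by magnetic beads against CD49f, the integrin subunit of Itga6, and had not been cultured. For these sorted cells the oxygen level is described as physiological hypoxia, with no figure. Each group had 2 arrays, each of RNA from pooled animals. Both kinds of colony were grown on laminin at 200 ng/cm2 with insulin, transferrin, selenium and epidermal growth factor at 10 ng/ml, and were picked before RNA extraction. The labels call the cells primordial germ cells (PGC) and glandular stem cells (GSC), and do not give the sex of the embryos.

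The gonad arises as a thickening of the coelomic epithelium over the mesonephros. WT1, NR5A1 (also called SF-1), GATA4, LHX9, EMX2 and the Polycomb protein CBX2 are each known in the mouse to be needed for this bipotential ridge to form or survive. In XY gonads SRY then raises SOX9 in the supporting cells, which become Sertoli cells, and DMRT1 keeps these cells male after birth. Somatic cells of the gonad, not the germ cells, carry most of these factors, although DMRT1 is made by spermatogonia as well as by Sertoli cells.

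The labels were set against marker genes of the cell types a gonad holds. Of 18 germ cell markers, 13 were tested, and Dppa3, Tfap2c, Sycp3, Stra8 and Ret lay under the filter's level of 7.82 on the log2 scale on every array. That level is the 30th percentile of the probes of an array and served as the lower limit of measurement, because detection calls were not used. Other germ cell markers exceeded that level. For example, Nanos2 averaged 10.81 on PGC colony arrays, 11.06 on GSC colony arrays and 11.06 on sorted arrays. Ddx4 averaged 9.84, 10.25 and 9.99 in that order. Dazl averaged 10.10 for GSC colonies and 8.65 for sorted cells, but was under that level on both PGC colony arrays. Sums of different lists rest on different probes, so they compare groups and not lists. The germ cell list summed to 9928 to 10100 normalized intensity units on PGC colony arrays. Its sums were 11480 to 12480 on GSC colony arrays and 9780 to 10390 on sorted arrays. Sertoli markers summed to 270200 to 289200 on PGC colony arrays, 376300 to 394300 on GSC colony arrays and 1042000 to 1094000 on sorted arrays. Clu, a gene that other cell types make too, was the brightest of them; without it the list summed to 98980 to 102500 on PGC colony arrays, 152000 to 175000 on GSC colony arrays and 762800 to 814800 on sorted arrays. Median deposited intensity was 541 to 606 on the colony arrays and 393 to 406 on the sorted arrays. Pearson's r across probes, a description since probes are not replicates, was 0.992 for the PGC colony pair, 0.983 for the GSC colony pair and 0.992 for the sorted pair. Nothing in the labels tells separate cultures from repeat arrays of 1 preparation, so p-values reflect array-to-array spread that may be technical, and 2 arrays a group give limited precision.

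All 9 factors differed between each kind of colony and the sorted cells, and 7 of them were lower in the colonies. Of all genes tested, 47.1% differed between GSC colonies and sorted cells, 46% between PGC colonies and sorted cells, and 15.1% between PGC colonies and GSC colonies. In GSC colonies against sorted cells, 7 fell and 2 rose, where 24.5% of all genes tested fell and 22.5% rose (limma, p adjusted by Benjamini-Hochberg across the whole table, under 0.05). In PGC colonies against sorted cells, the counts were again 7 lower and 2 higher, where 23.2% of all genes fell and 22.8% rose. These comparisons share the sorted arrays, so the equal counts are not independent of each other. The median difference over the 9 factors was -1.20 in GSC colonies and -0.90 in PGC colonies on the log2 scale, beside -0.01 and -0.02 over all genes. Between PGC colonies and GSC colonies, 1 factor was higher and 2 were lower, where 7.08% of all genes rose and 7.98% fell, and 6 did not pass the test. The median difference of the factors in that comparison was -0.02, beside 0.01 over all genes. Without normalization between arrays the median gene shifted by 0.465 and 0.423 towards the GSC and PGC colonies, and 17.5% and 19.5% of the called genes fell there, against 52.1% and 50.5% with it. The directions of all 9 factors against sorted cells were the same in that setting.

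**Figure D1:**
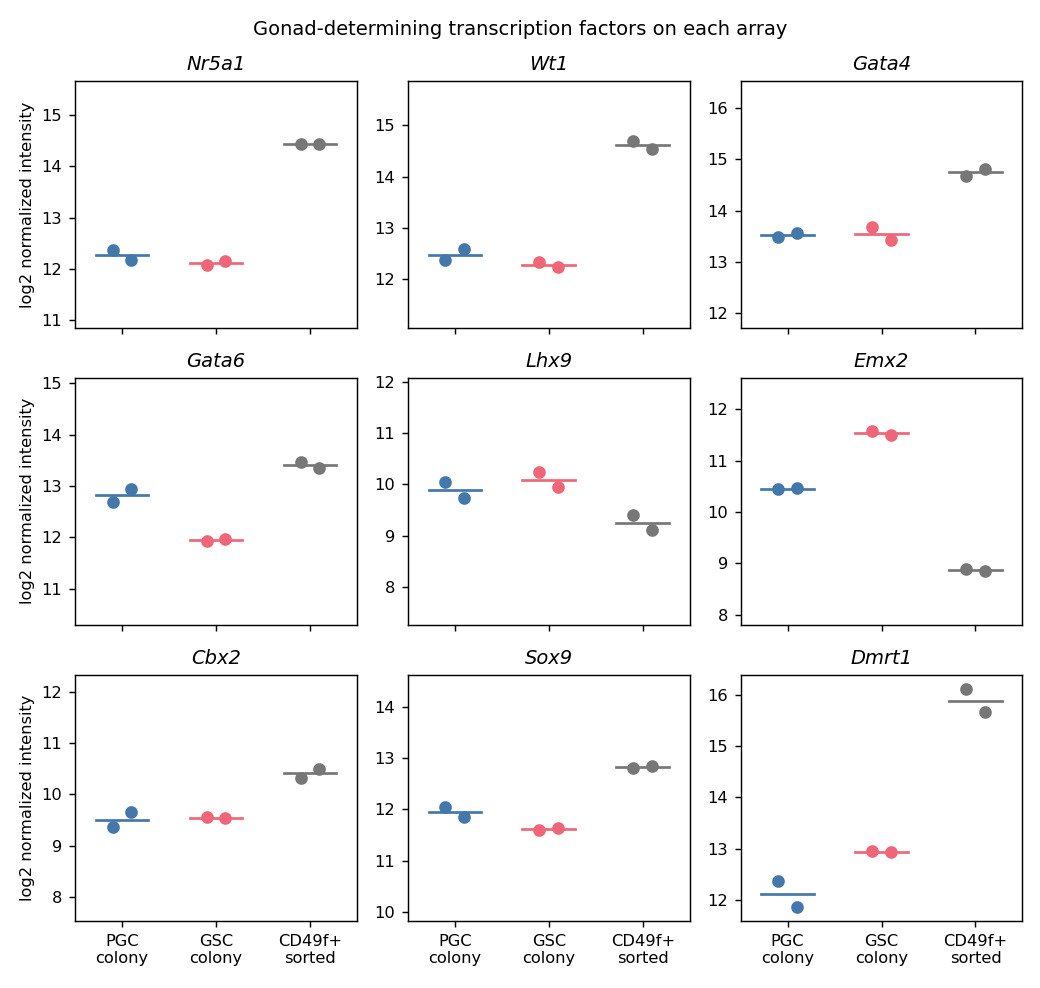
Each panel shows 1 gene; points are the 2 arrays of a group, short lines their mean, and the vertical axis is the normalized intensity on the log2 scale, spanning the same number of units in every panel. Sorted cells stand highest for Nr5a1, Wt1, Gata4, Gata6, Cbx2, Sox9 and Dmrt1 and lowest for Lhx9 and Emx2.

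Nr5a1 and Wt1 were lower in both kinds of colony, by nearly the same amount. Nr5a1, the nuclear receptor that drives gonad and adrenal formation and steroid synthesis (probe mMC003137), had deposited intensities of 5783 and 5130 on PGC colony arrays, 4891 and 5302 on GSC colony arrays, and 16120.5 and 16592 on sorted arrays. Wt1, the zinc finger factor of the coelomic epithelium, kidney and Sertoli cells (probe PH_mM_0013014), had 5778 and 6850 on PGC colony arrays, 5894 and 5641 on GSC colony arrays, and 19009 and 18039 on sorted arrays. For both genes every colony array lay below every sorted array, as 75.6% of all genes had no overlap between GSC colonies and sorted cells and 71.1% none between PGC colonies and sorted cells. On the normalized log2 scale Nr5a1 measured 12.27 ± 0.14 in PGC colonies, 12.12 ± 0.05 in GSC colonies and 14.44 ± 0.00019 in CD49f+ sorted cells (SD, n = 2 each). It fell by 2.16 ± 0.12 (SE) in PGC colonies (limma adjusted p = 2.97e-05) and fell by 2.32 ± 0.12 in GSC colonies (limma adjusted p = 1.92e-05), which is 4.48-fold and 5.00-fold lower. Wt1 measured 12.48 ± 0.15 in PGC colonies, 12.28 ± 0.07 in GSC colonies and 14.62 ± 0.10 in sorted cells. It fell by 2.13 ± 0.13 in PGC colonies (limma adjusted p = 4.16e-05) and fell by 2.33 ± 0.13 in GSC colonies (limma adjusted p = 2.68e-05). Neither passed the test between PGC colonies and GSC colonies. That difference was 0.16 for Nr5a1 (95% confidence interval -0.12 to 0.44) and 0.20 for Wt1 (-0.11 to 0.51). The ratio of Wt1 to Nr5a1 within an array differed by -0.01 on the log2 scale for GSC colonies against sorted cells and by 0.04 for PGC colonies against GSC colonies, with overlapping arrays.

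The GATA factors differed from each other in the colonies. Gata4, a zinc finger factor needed for the first thickening of the ridge (probe mMC017950), had deposited intensities of 12664 and 13585.5 in PGC colonies, 15394 and 13353 in GSC colonies, and 18912 and 21476 in sorted cells. Gata6, its close relative in gonadal somatic cells and heart (probe PH_mM_0001627), had 7201 and 8827 in PGC colonies, 4406 and 4650 in GSC colonies, and 8327 and 8101 in sorted cells. The colony groups overlapped for Gata4, whereas for Gata6 both PGC colony arrays exceeded both GSC colony arrays (56.7% of all genes had no overlap between the colony groups), and on the deposited scale they overlapped the sorted arrays. On the normalized log2 scale Gata4 measured 13.53 ± 0.05 in PGC colonies, 13.55 ± 0.17 in GSC colonies and 14.75 ± 0.09 in CD49f+ sorted cells (SD, n = 2 each). It fell by 1.22 ± 0.13 in PGC colonies and fell by 1.19 ± 0.13 in GSC colonies (limma adjusted p = 0.000438 and 0.000471). Left unnormalized between arrays, these values were -0.62 and -0.49 (limma adjusted p = 0.00726 and 0.017). Gata4 did not differ detectably between the colony groups, at -0.02 with a 95% confidence interval of -0.33 to 0.29. Gata6 measured 12.82 ± 0.18 in PGC colonies, 11.95 ± 0.02 in GSC colonies and 13.41 ± 0.08 in sorted cells. It fell by 1.46 ± 0.13 in GSC colonies against sorted cells (limma adjusted p = 0.000186; -0.86 when left unnormalized), and was higher by 0.86 ± 0.13, or 1.82-fold, in PGC colonies than in GSC colonies (limma adjusted p = 0.00691). The order of Gata6 was therefore sorted cells, PGC colonies, GSC colonies. Its step between PGC colonies and sorted cells was the smallest, -0.59 ± 0.13 (limma adjusted p = 0.00923), and it did not pass without sorted replicate 1 (-0.54, adjusted p = 0.0649) or without normalization between arrays (-0.05, adjusted p = 0.782, which was -0.47 relative to the median gene). The log2 ratio of Gata6 to Gata4 within an array was higher by 0.89 in PGC colonies than in GSC colonies. As Gata4 differed by only -0.02 there, this ratio mostly restates the difference of Gata6.

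Lhx9 and Emx2, the homeodomain factors of the set, were higher in colonies, against the direction of the other 7. Both are made in the coelomic epithelium and underlying ridge, and mice that lack either form no gonads. Their promoters are shown because theirs were the only ones found, 2 of 8 members looked up, and Gata6 was not looked up. The windows are RefSeq's 300 bases from 250 before to 50 after the gene start on GRCm38.p6. Sequences run 5′ to 3′ on the gene's strand, and capitals mark matches to the motifs named after them. Emx2 lies on the plus strand at chr19:59458440-59458739 and Lhx9 on the minus strand at chr1:138842395-138842694.
Emx2: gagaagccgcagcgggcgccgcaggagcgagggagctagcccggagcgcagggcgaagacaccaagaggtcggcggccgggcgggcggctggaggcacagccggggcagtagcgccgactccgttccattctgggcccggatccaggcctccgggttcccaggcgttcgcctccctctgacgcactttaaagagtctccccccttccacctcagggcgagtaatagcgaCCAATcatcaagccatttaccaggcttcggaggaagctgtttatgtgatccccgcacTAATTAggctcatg
Lhx9: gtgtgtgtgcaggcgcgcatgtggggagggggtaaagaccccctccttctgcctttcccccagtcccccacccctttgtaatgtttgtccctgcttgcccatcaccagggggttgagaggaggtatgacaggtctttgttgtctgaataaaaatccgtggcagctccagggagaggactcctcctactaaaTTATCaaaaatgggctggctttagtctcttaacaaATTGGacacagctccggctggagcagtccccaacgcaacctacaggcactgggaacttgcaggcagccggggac
The following 7 short motifs were searched on both strands: the homeodomain core TAATTA, the GATA core GATAA, the SOX core ACAAT, the NR5A1 half-site AAGGTCA, the CCAAT box, the TATA box with the letters TATAAA and the DMRT1 core ACANTGT. Both promoters held CCAAT, which 37.4% of the 32851 promoters in the table hold. The Emx2 window also held TAATTA at bases 287 to 292, present in 5.29% of promoters, and the Lhx9 window held GATAA on the opposite strand at bases 192 to 196, present in 25.4%. The remaining 4 motifs were not among the letters of either window. The Emx2 window had a GC content of 64.3% and 26 CpG dinucleotides, and the Lhx9 window 55.3% and 6, beside medians of 52.7% and 7 over all promoters. These matches are descriptions of sequence, and the arrays measured no binding.

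Emx2 (probe PH_mM_0001004) rose most of the 9. Its deposited intensity was 1501 and 1465 in PGC colonies, 3383 and 3297 in GSC colonies, and 326.9 and 323.6 in sorted cells. Of all genes, 75.6% had no overlap between GSC colonies and sorted cells, 71.1% between PGC colonies and sorted cells and 56.7% between the colonies. For Emx2 the 3 groups stood apart with no overlap, GSC colonies highest and sorted cells lowest. On the normalized log2 scale it measured 10.45 ± 0.01 in PGC colonies, 11.53 ± 0.05 in GSC colonies and 8.87 ± 0.03 in CD49f+ sorted cells (SD, n = 2 each). It rose by 2.66 ± 0.10, or 6.33-fold, in GSC colonies against sorted cells (limma adjusted p = 6.82e-06) and by 1.58 ± 0.10 in PGC colonies (limma adjusted p = 5.66e-05). Between the colonies, Emx2 fell by 1.08 ± 0.10 in PGC colonies against GSC colonies (limma adjusted p = 0.00124). Lhx9 on its brighter probe (PH_mM_0006640) had 1124 and 851.2 in PGC colonies, 1334 and 1068 in GSC colonies, and 483.8 and 398.7 in sorted cells. Every colony array exceeded every sorted array, beside those 75.6% and 71.1% of all genes without overlap, while the colony groups overlapped. It rose by 0.84 ± 0.18 in GSC colonies (limma adjusted p = 0.00922) and by 0.63 ± 0.18 in PGC colonies (limma adjusted p = 0.0285) against sorted cells, and by 1.29 and 1.03 when left unnormalized between arrays. The call in GSC colonies was lost without sorted replicate 2 (0.69, adjusted p = 0.0591). The call in PGC colonies was lost without sorted replicate 2 (0.48, adjusted p = 0.153) and without PGC colony replicate 1 (0.47, adjusted p = 0.128). Lhx9 differed by -0.21 between PGC colonies and GSC colonies, with a 95% confidence interval of -0.64 to 0.22. The other Lhx9 probe (PH_mM_0012468) was under the filter's level on all 6 arrays, at deposited intensities of 2.589 to 108, so no fold is given for it.

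Cbx2 was lower in both kinds of colony than in sorted cells. CBX2 is the chromobox subunit of Polycomb repressive complex 1, and XY mice without it show gonadal sex reversal. Its probe (mMC010395) had deposited intensities of 700.4 and 807.6 in PGC colonies, 821.5 and 781.1 in GSC colonies, and 952.1 and 1117 in sorted cells. Between sorted arrays and GSC colonies 75.6% of all genes had no overlap, and between sorted arrays and PGC colonies 71.1%. For Cbx2, sorted arrays were the highest and the colony groups overlapped. On the normalized log2 scale it measured 9.51 ± 0.21 in PGC colonies, 9.55 ± 0.01 in GSC colonies and 10.41 ± 0.12 in CD49f+ sorted cells (SD, n = 2 each). It fell by 0.90 ± 0.14 in PGC colonies and fell by 0.86 ± 0.14 in GSC colonies (limma adjusted p = 0.0024 and 0.0028). Left unnormalized between arrays, Cbx2 differed by -0.46 and -0.38 there (adjusted p = 0.0288 and 0.0492). Between PGC colonies and GSC colonies the difference was -0.04, with a 95% confidence interval of -0.38 to 0.30.

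The male-pathway factors Sox9 and Dmrt1 were both lower in colonies, by unequal amounts. Sox9, the HMG-box factor that acts downstream of SRY in Sertoli cells (probe PH_mM_0009566), had deposited intensities of 4618 and 4126 in PGC colonies, 3474 and 3665 in GSC colonies, and 5377 and 5771 in sorted cells. Dmrt1, the DM-domain factor that maintains male identity (probe mMC018592), had 5754 and 4188 in PGC colonies, 9001 and 9257 in GSC colonies, and 51096 and 38915 in sorted cells. For both genes the 3 groups stood apart, with sorted cells highest, but Sox9 was lowest in GSC colonies and Dmrt1 lowest in PGC colonies. Of all genes, 75.6% had no overlap between GSC colonies and sorted cells, 71.1% between PGC colonies and sorted cells and 56.7% between the colonies. On the normalized log2 scale Sox9 measured 11.94 ± 0.14 in PGC colonies, 11.62 ± 0.03 in GSC colonies and 12.82 ± 0.02 in CD49f+ sorted cells (SD, n = 2 each). It fell by 0.88 ± 0.11 in PGC colonies and fell by 1.20 ± 0.11 in GSC colonies (limma adjusted p = 0.00111 and 0.000282). Left unnormalized between arrays, Sox9 differed by -0.35 in PGC colonies and by -0.64 in GSC colonies (limma adjusted p = 0.0415 and 0.00392). Its difference of 0.32 between PGC colonies and GSC colonies did not pass (adjusted p = 0.122; 95% confidence interval 0.04 to 0.60 before adjustment). Dmrt1 measured 12.12 ± 0.35 in PGC colonies, 12.94 ± 0.01 in GSC colonies and 15.89 ± 0.30 in sorted cells. It fell by 3.77 ± 0.21, or 13.6-fold, in PGC colonies (limma adjusted p = 3.34e-05) and fell by 2.94 ± 0.21, or 7.68-fold, in GSC colonies (limma adjusted p = 8.13e-05), the largest falls of the set. Between PGC colonies and GSC colonies Dmrt1 fell by 0.83 ± 0.21 (limma adjusted p = 0.0484), a call that 8 of 16 other settings lost; without PGC colony replicate 2 the difference was -0.58 (adjusted p = 0.159). The log2 ratio of Dmrt1 to Sox9 within an array differed by -1.74 for GSC colonies and by -2.89 for PGC colonies against sorted cells.

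**Figure D2:**
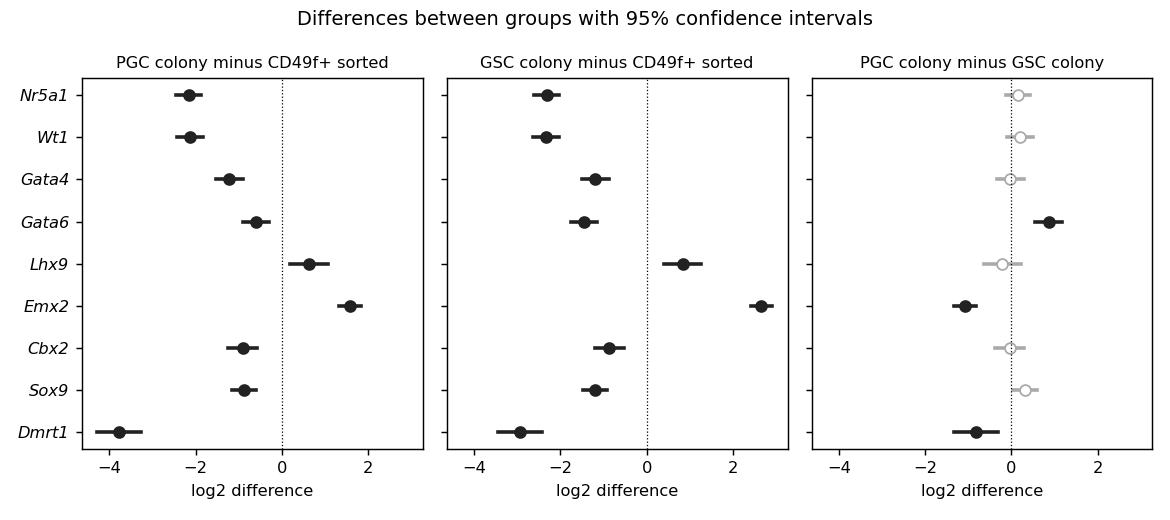
Points are log2 differences and bars their 95% confidence intervals before adjustment, for each comparison named above its panel; filled points passed the adjusted test and open points did not. All 9 genes passed against sorted cells in both colony groups, and Gata6, Emx2 and Dmrt1 passed between the colonies.

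Marker genes of gonadal cell types also differed between the groups. Of all genes tested, 22.5% rose and 24.5% fell in GSC colonies against sorted cells, and 22.8% rose and 23.2% fell in PGC colonies. Between PGC colonies and GSC colonies, 7.08% of all genes rose and 7.98% fell. Of 15 Sertoli markers tested, 13 fell and 1 rose in GSC colonies against sorted cells, with a median difference of -2.83, and 14 fell in PGC colonies, with a median of -2.80. Amh and Rhox5 were under the filter's level on both GSC colony arrays, and Rhox5 on both PGC colony arrays. Mro was under that level on every array, sorted cells included, and was not tested. Fibroblast and mesenchyme markers went the other way, with 9 of 10 higher in each colony group against sorted cells and 1 lower in PGC colonies. Their sum was 339700 to 345600 in PGC colonies, 604000 to 618700 in GSC colonies and 62260 to 74670 in sorted cells. Col1a1, of the same list, was under the filter's level on every array and was not tested. Coelomic and mesothelial epithelium also makes Wt1, Lhx9 and Emx2. Its markers summed to 4602 to 5043 in PGC colonies, 8288 to 8678 in GSC colonies and 13780 to 14510 in sorted cells. Of 10 tested, 5 were lower and 4 higher than in sorted cells in GSC colonies, and 6 lower and 1 higher in PGC colonies. Without Krt8, the brightest of them, the sums were 3811 to 4132 in PGC colonies, 7832 to 8016 in GSC colonies and 5338 to 5679 in sorted cells, so GSC colonies then stood highest. Leydig and steroidogenic markers summed to 30310 to 31340 in PGC colonies, 31890 to 33280 in GSC colonies and 81340 to 86600 in sorted cells, among which Hsd3b1, Cyp17a1 and Scarb1, singled out after their values were seen, fell in both colony groups. Of 8 tested, 3 rose and 3 fell in GSC colonies (median 0.06), and 2 rose and 3 fell in PGC colonies (median -0.14). Macrophage and leukocyte markers fell in 11 of 11 cases in each colony group, with medians of -4.07 in GSC colonies and -2.89 in PGC colonies, and summed to 14440 to 17660 in PGC colonies, 7257 to 7559 in GSC colonies and 141200 to 146700 in sorted cells. Adgre1, C1qb and Tyrobp were under the filter's level on both GSC colony arrays, and 8 of the 11 were higher and 1 lower in PGC colonies than in GSC colonies. Endothelial markers fell in 9 of 10 cases in GSC colonies, where 1 rose, and in 10 of 10 in PGC colonies, and summed to 8948 to 9148 in PGC colonies, 19160 to 20250 in GSC colonies and 58290 to 60360 in sorted cells. Peritubular myoid and smooth muscle markers rose in 5 of 5 cases in GSC colonies, and 3 rose and 2 fell in PGC colonies. They summed to 41010 to 43130 in PGC colonies, 87000 to 87720 in GSC colonies and 10610 to 11070 in sorted cells. Without Acta2, the brightest of them, the sums were 6273 to 6763, 29430 to 32400 and 6429 to 6944, so PGC colonies then overlapped sorted cells. Cnn1 and Lmod1 were under the filter's level on every array. Granulosa markers fell in 4 and rose in 2 of 7 cases in GSC colonies, and fell in 3 and rose in 2 in PGC colonies, with sums of 16130 to 17790 in PGC colonies, 15370 to 16770 in GSC colonies and 29890 to 32660 in sorted cells. Of 13 germ cell markers tested, 6 rose and 3 fell in GSC colonies, and 1 rose and 5 fell in PGC colonies. In these bulk samples fewer cells of a type and less RNA per cell cannot be told apart, and the part of cell composition in the changes of the 9 factors was not tested. Culture, selection by CD49f and, for PGC colonies, stage and possibly sex differ together from the sorted group and cannot be told apart. GSC colonies and sorted cells both came from testes, whereas embryos of unstated sex gave the PGC colonies. PGC colonies and GSC colonies therefore differ in stage, and perhaps in sex, along with the cell kind in the labels. The part of each in the Gata6, Emx2 and Dmrt1 calls between the colonies was not tested.

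**Figure D3:**
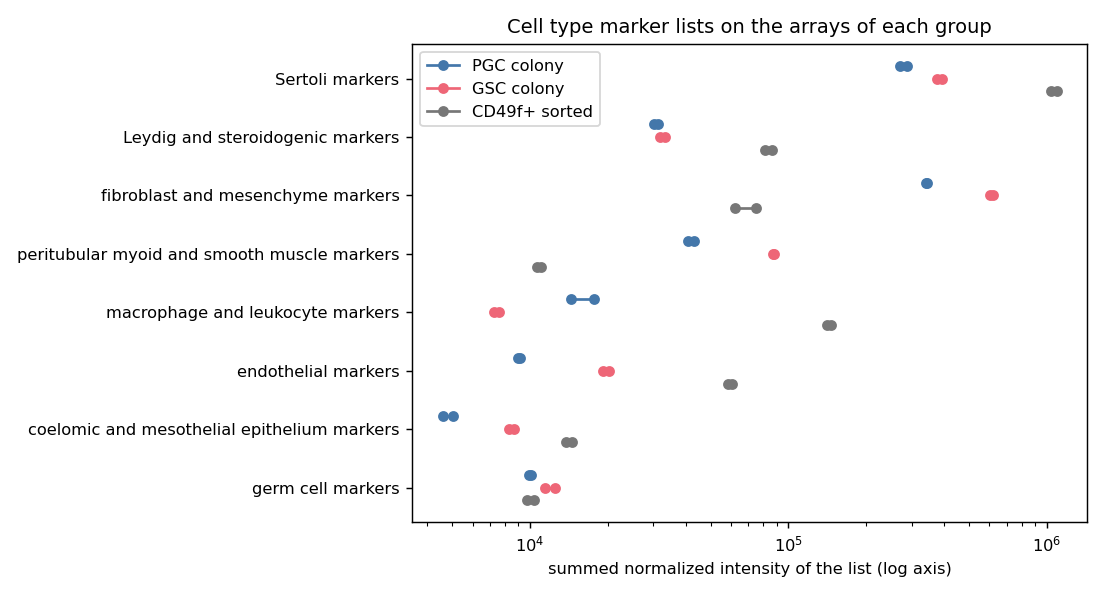
Each pair of joined points gives the lower and the higher array of a group, as the summed normalized intensity of a marker list on a log axis. The Sertoli list is highest in sorted cells, at 1042000 to 1094000, and the fibroblast list lowest there.

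Genes that act with these factors were followed as lists. Of 18 tested partners in the bipotential gonad, 5 rose and 8 fell in GSC colonies against sorted cells, with a median difference of -0.39. The counts in PGC colonies were also 5 and 8, with a median of -0.35. Of all genes, 22.5% rose and 24.5% fell in GSC colonies, and 22.8% rose and 23.2% fell in PGC colonies. Tcf21, a basic helix-loop-helix factor of gonadal mesenchyme, rose by 4.15 ± 0.19 in GSC colonies and 3.02 ± 0.19 in PGC colonies. Nr2f2 (COUP-TFII), a nuclear receptor of interstitial cells, rose by 3.61 ± 0.20 and 3.07 ± 0.20. The direction was opposite for the GATA cofactor genes Zfpm1 and Zfpm2, which encode FOG1 and FOG2: Zfpm1 fell by 2.80 ± 0.17 in GSC colonies and fell by 2.92 ± 0.17 in PGC colonies, and Zfpm2 fell by 0.82 ± 0.12 and fell by 0.41 ± 0.12 there (limma adjusted p = 0.00203 and 0.0334). Zfpm2 and the WT1 partner gene Cited2, which fell by 1.92 ± 0.12 in GSC colonies, were singled out after their values were seen. Podxl, a sialomucin gene of podocytes and a known WT1 target, fell by 3.45 ± 0.13 in GSC colonies and fell by 2.42 ± 0.13 in PGC colonies. In PGC colonies against GSC colonies, Podxl was higher by 1.03 ± 0.13 and Tcf21 fell by 1.13 ± 0.19. The other 16 partners did not pass, where 7.08% of all genes rose and 7.98% fell.

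Genes named as targets of NR5A1, GATA4 or WT1 fell in 12 of 16 cases in each colony group against sorted cells. Of all genes, 24.5% fell in GSC colonies and 23.2% in PGC colonies. Medians of the targets were -2.48 in GSC colonies and -2.66 in PGC colonies. Many of these targets are also Sertoli markers, so the lists overlap. Cst9, which encodes a cystatin-like protein and marks Sertoli cells, fell by 7.88 ± 0.24 in GSC colonies, fell by 6.74 ± 0.24 in PGC colonies, and was higher by 1.13 ± 0.24 in PGC colonies than in GSC colonies. Amh, the anti-Müllerian hormone gene, fell by 4.69 ± 0.26 in PGC colonies, where 1 of 2 arrays was under the filter's level, and was at least 25.4-fold lower in GSC colonies. Genes of steroid synthesis did not all fall, and whether any target changed through these factors was not tested. Star, the cholesterol transporter of steroid-making cells, rose by 0.35 ± 0.11 in GSC colonies (limma adjusted p = 0.0414), and Cyp11a1 and Fdx1 did not pass in any of the 3 comparisons. Those last genes were singled out after their values were seen. Cyp17a1, an enzyme of androgen synthesis, fell by 1.42 ± 0.14 in PGC colonies against GSC colonies, and Fshr, the receptor of follicle-stimulating hormone, fell by 0.56 ± 0.11. Mc2r, the corticotropin receptor of adrenal-type cells, exceeded its level in sorted cells by at least 3.08-fold in PGC colonies and by at least 1.12-fold in GSC colonies, and higher by 1.46 ± 0.12 in PGC colonies than in GSC colonies (limma adjusted p = 0.000782).

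The testis pathway fell in 11 and rose in 2 of 13 tested genes in GSC colonies, with a median of -1.57. It fell in 10 and rose in 2 in PGC colonies, with a median of -1.86. Of all genes, 24.5% fell and 22.5% rose in GSC colonies, and 23.2% fell and 22.8% rose in PGC colonies. Sry, Fgf9 and Gsk3b were under the filter's level on all arrays and were not tested. Nr0b1 (DAX1), an NR5A1 partner, fell by 3.83 ± 0.13 in PGC colonies, and the prostaglandin D synthase gene Ptgds fell by 3.95 ± 0.52 in GSC colonies. The genes that rose were receptors, Pdgfra by 4.78 ± 0.11 in GSC colonies and 3.73 ± 0.11 in PGC colonies, and Fgfr2 by 1.88 ± 0.13 and 1.38 ± 0.13. PGC colonies against GSC colonies had 2 testis pathway genes higher and 3 lower, where 7.08% of all genes rose and 7.98% fell. Sox10 was higher by 0.69 ± 0.12, the retinoic acid-degrading Cyp26b1 was higher by 0.51 ± 0.12, Map2k6, a kinase gene, fell by 1.36 ± 0.14 and Pdgfra fell by 1.05 ± 0.11.

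Of 12 ovary pathway genes tested, 4 rose and 4 fell in GSC colonies against sorted cells (22.5% and 24.5% of all genes), and 5 rose and 4 fell in PGC colonies (22.8% and 23.2% of all genes), with medians of -0.21 and -0.10. Foxl2, the forkhead factor of granulosa cells, rose by 3.11 ± 0.18 in GSC colonies and 2.36 ± 0.18 in PGC colonies, from a level that was under the filter's on 1 of 2 sorted arrays. Follistatin, Fst, was higher than in sorted cells by at least 9.62-fold in GSC colonies and by at least 2.73-fold in PGC colonies. Runx1, a factor of supporting cells that is also made in blood cells, rose by 2.77 ± 0.27 in PGC colonies. Esr2, an oestrogen receptor gene, fell by 1.48 ± 0.19 in GSC colonies and fell by 1.40 ± 0.19 in PGC colonies. Znrf3, a ubiquitin ligase gene of Wnt receptors, fell by 1.32 ± 0.10 and fell by 0.87 ± 0.10 there. In PGC colonies against GSC colonies 4 ovary pathway genes were higher and 2 lower (7.08% and 7.98% of all genes). Among them, Fst fell by 1.81 ± 0.12, Foxl2 fell by 0.76 ± 0.18 and Lgr5 was higher by 0.97 ± 0.21. Lef1, a Wnt effector gene under the filter's level in GSC colonies and in sorted cells, was at least 1.12-fold higher in PGC colonies than in either.

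**Figure D4:**
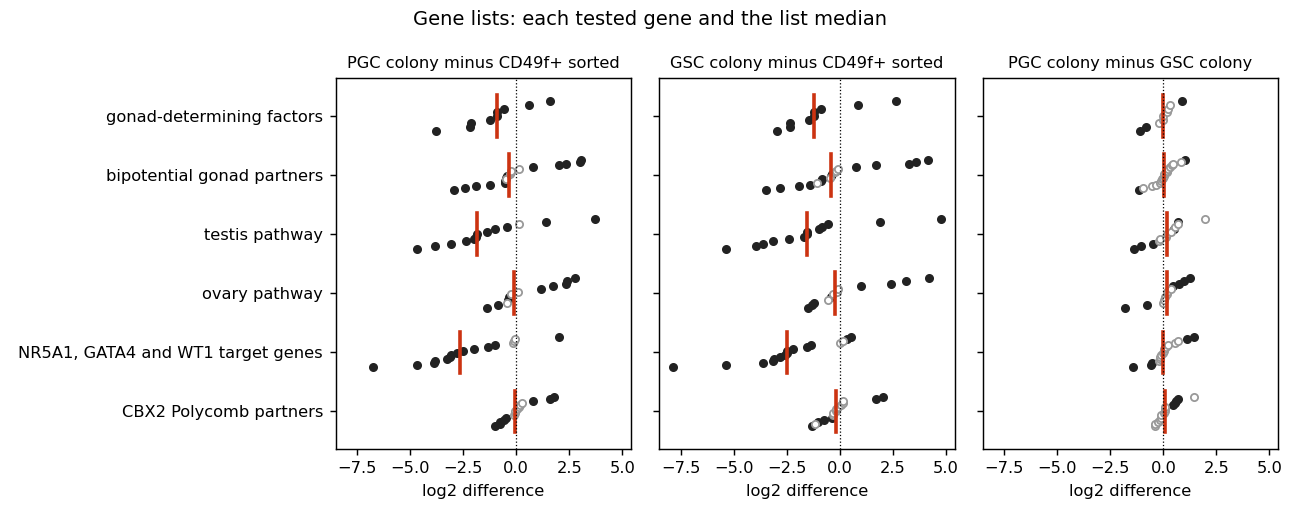
Points are the log2 differences of the tested genes of each list, filled where the adjusted test was passed, and vertical red bars are list medians. Among the lists drawn, the target list has the lowest medians against sorted cells, -2.48 in GSC colonies and -2.66 in PGC colonies, and medians between the colonies lie near 0.

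Of the relatives of these factors, other GATA genes took separate courses. Gata2, best known in blood and endothelial precursors, rose by 3.06 ± 0.11 in GSC colonies against sorted cells, measured 8.42 in PGC colonies and 8.52 in sorted cells, and fell by 3.16 ± 0.11 in PGC colonies against GSC colonies (limma adjusted p = 3.32e-05). Gata1, a factor of red cells and of Sertoli cells, fell by 1.53 ± 0.16 in GSC colonies and fell by 1.50 ± 0.16 in PGC colonies. Gata3, a factor of the mesonephric duct, was higher by 1.23 ± 0.12 in PGC colonies than in GSC colonies, and higher by 0.81 ± 0.12 than in sorted cells. It fell by 0.42 ± 0.12 in GSC colonies against sorted cells (limma adjusted p = 0.0308). Gata5 was under the filter's level on all arrays. Of 10 tested relatives of the other factors, 4 fell and 0 rose in GSC colonies against sorted cells (limma, and 0 rose at an unadjusted p under 0.05 as well). Of all genes, 24.5% fell and 22.5% rose there. Sox8, which acts with Sox9 in Sertoli cells, fell by 1.70 ± 0.15 in GSC colonies and fell by 1.86 ± 0.15 in PGC colonies. Dmrta1, of the DM-domain family, fell by 3.11 ± 0.20 in GSC colonies, fell by 1.83 ± 0.20 in PGC colonies, and was higher by 1.29 ± 0.20 in PGC colonies than in GSC colonies.

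Of 15 Polycomb partners of CBX2 tested, 2 rose and 4 fell in GSC colonies against sorted cells, where 22.5% and 24.5% of all genes did, with a median of -0.20. In PGC colonies 3 rose and 5 fell, where 22.8% and 23.2% of all genes did, with a median of -0.04. The chromobox gene Cbx6 rose by 2.03 ± 0.13 in GSC colonies and 1.76 ± 0.13 in PGC colonies, while Cbx2 itself fell in both. Bmi1, a ring finger subunit gene, rose by 1.73 ± 0.14 and 1.60 ± 0.14. Ezh2, the histone H3 lysine methyltransferase gene, fell by 1.31 ± 0.11 in GSC colonies, and its partner Suz12 fell by 1.02 ± 0.11 in GSC colonies and fell by 0.99 ± 0.11 in PGC colonies. Between PGC colonies and GSC colonies 4 of the 15 were higher, against 7.08% of all genes, and 0 lower (limma, adjusted p under 0.05; 2 were lower at an unadjusted p under 0.05), led by Jarid2 at 0.69 ± 0.17 and Phc2 at 0.62 ± 0.12.

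For each factor, the genes with the most similar pattern were found by Pearson's r over the 6 arrays, which fall into 3 groups, so r reflects mostly the group means and is given as a description. Closest to Nr5a1 were Rasl12 and Ing3 (r = 0.99993 and 0.99982), and closest to Wt1 were Kdm7a and Kif21a (0.99985 and 0.99982). Dmrt1 was nearest to Alad and Ell3 (0.99961 and 0.99928), Sox9 to Pfkfb3 and Pms2 (0.9992 and 0.99917), and Emx2 to Arsj and Ptprz1 (0.99951 and 0.9987). Gata4 was nearest to Synm and Lrba, Gata6 to Lor and Bend5, Cbx2 to Brca2 and Itsn2, and Lhx9 to Zfp592 and Qpct, at r of 0.99141 to 0.9984. For Nr5a1, 396 genes exceeded r = 0.99, for Gata6 33 and for Lhx9 4. These counts also depend on the spread within groups, where SDs were 0.207 to 0.219 for Lhx9 and 0.00019 to 0.14 for Nr5a1. They therefore do not show how common each pattern was.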

How the data were processed

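Each array measured Cy5-labelled RNA of 1 sample, and groups and replicate numbers came from the labels. The deposited table holds linear probe intensity, not normalized between arrays; values below 0 on 4 of 6 arrays show that background had been subtracted, while no label names the scanner, software, background method or genome build. Per the labels' protocols, RNA was amplified and labelled with an amino allyl kit.

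Probes were named through the series' probe table: 21876 had 1 symbol, 0 several and 4547 none. Intensities went through normexp with an offset of 50, log2 and quantile normalization. The brightest of a gene's probes stood for it. To be tested, a gene had to reach the array's 30th percentile on 2 or more of 6 arrays. limma 3.58.1 in R 4.3.3 fitted a mean per group to all 6 arrays (lmFit and eBayes, 3 residual degrees of freedom), and calls were made at a Benjamini-Hochberg adjusted p under 0.05. The script was tested on simulated data. A fold is given as "at least" where the dimmer group was under that percentile on both arrays, computed against its level. The number of arrays limits the precision. Named genes were the 9 factors, for each the 2 genes with the highest r, all GATA relatives, and from each list the 2 largest rises and falls that passed; a few others are marked. The members and lists were chosen with earlier results of these data known. Alternatives changed the normalization, offset, filter, probe rule, samples fitted and replicate block, and left out each array in turn.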

Additional observations from a re-analysis of the deposited data

How the results depend on the processing

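Across 16 alternative settings, 432 differences of the 9 factors were recomputed; 416 kept direction and call, 13 lost the call and 3 changed sign. Against sorted cells none of the 9 changed direction in any of the 16 settings, in either colony group; the calls lost there were those of Lhx9 and Gata6. The sign changes were in differences that had not passed between PGC colonies and GSC colonies: with 1 array left out, Gata4 ranged from -0.142 to 0.0939, positive without GSC colony replicate 1 (0.0939) or PGC colony replicate 1 (0.01), and Cbx2 from -0.19 to 0.113, positive without PGC colony replicate 1. The count of factors lower in PGC colonies than in GSC colonies was 1 in place of 2, through Dmrt1, with an offset of 16, with no filter on dim genes and with only the 2 groups compared in the fit, where adjusted p of Dmrt1 was 0.054, 0.0542 and 0.0552; the cause was not tested. Leaving out 1 array at a time gave 1 to 2 for that count (2 only without PGC colony replicate 1), and 1 to 2 factors higher in GSC colonies and 1 to 2 higher in PGC colonies against sorted cells. It gave 1445 to 2039 genes called between PGC colonies and GSC colonies, against 2329 with all arrays, the lowest being 1445 without GSC colony replicate 1 and 1527 without PGC colony replicate 2. Deviations of same-numbered arrays had no common sign, so they do not settle whether the replicate numbers pair the arrays. They correlated at -0.342 between GSC colony and sorted arrays, -0.179 between PGC colony and GSC colony arrays and 0.326 between PGC colony and sorted arrays. With the replicate block 6804, 1707 and 6637 genes were called for GSC colonies against sorted cells, PGC colonies against GSC colonies and PGC colonies against sorted cells, and no call of the 9 factors changed. Crossing the numbers of the GSC colony arrays, a setting chosen after the data were seen, gave 7831, 2703 and 7672, beside 7279, 2329 and 7111 with no block. Signal over background is known only through the 30th percentile of each array, which limits Amh, Fst, Mc2r, Lef1 and the dimmer Lhx9 probe.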
